A study of Mus musculus with 6 samples.

Results

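The 28 genes described here make cholesterol, sense it or move it inside the cell, and were read in gastrocnemius, the large calf muscle, of 6 mice. They were chosen by gene symbol, from a list of enzymes of the sterol pathway, proteins that regulate it and carriers of sterol. All 28 were among the 23282 rows of each count table. Of these, 24 passed the filter on low counts, as did 11700 rows in all. The mice were wild-type C57/BL6J males, 20 months old. Of them, 3 were given inotodiol at 0.35 mg/kg by mouth each day for 10 weeks, and 3 were given the vehicle of polyethylene glycol, Tween 80 and saline. Inotodiol is a lanostane triterpenoid of the chaga mushroom, and the study's title concerns muscle wasting in old age and the liver X receptor beta. The comparison shows how the transcripts of the body's own sterol pathway stood in muscle under an oral sterol-like compound.

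Cells make cholesterol from acetyl-CoA. The mevalonate arm builds isoprenoid units, these are joined to farnesyl diphosphate and squalene, and squalene is closed to lanosterol, which is trimmed to cholesterol. The transcription factor SREBP2 (gene Srebf2) switches these enzymes on when membrane sterol is low. Scap carries SREBP2 out of the endoplasmic reticulum, and Insig proteins hold Scap back when sterol is plentiful. In muscle the same arm feeds ubiquinone and the lipid anchors of small GTPases. Bulk muscle RNA mixes fibres with other cells, so fewer cells of a type and less RNA per cell cannot be told apart.

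Library totals ranged from 8961893 to 9953764 counts, and the 28 genes together took from 4425 to 5510 of them. Of the 12 genes listed as marks of muscle fibres, all passed the filter, and their sums ranged from 180309 to 192856 CPM (counts scaled to a common library total) in inotodiol libraries and from 189714 to 194403 CPM in vehicle libraries. Some libraries stood apart by markers of other cells. Hepatocyte genes, with 22 of 22 in the table and 19 of 19 tested higher with inotodiol, summed to 793, 333 and 178 CPM in inotodiol libraries 1 to 3, against 105 to 139 CPM in vehicle libraries. The 14 exocrine pancreas genes summed to 79.8 CPM in inotodiol 1 and to 3.03 CPM or less in every other library. Schwann cell and myelin genes summed to 231 CPM in inotodiol 3, against 84.6 to 123 CPM in the other libraries. Macrophage genes summed to between 72.9 and 242 CPM in inotodiol libraries and between 123 and 370 CPM in vehicle libraries, highest in vehicle 3. Fibroblast genes, with 0 of 7 above 0 and a median log2 fold change of -0.22, summed to between 841 and 1127 CPM in inotodiol libraries and to 1033, 1007 and 1673 CPM in vehicle libraries 1 to 3. Erythroid genes summed to 13988 CPM in inotodiol 2, against 4379 to 7973 CPM in the other libraries. No gene of these 6 lists was at 0 in all libraries. The part of these cells in the sterol results was not tested beyond leaving out each library.

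**Figure D1:**
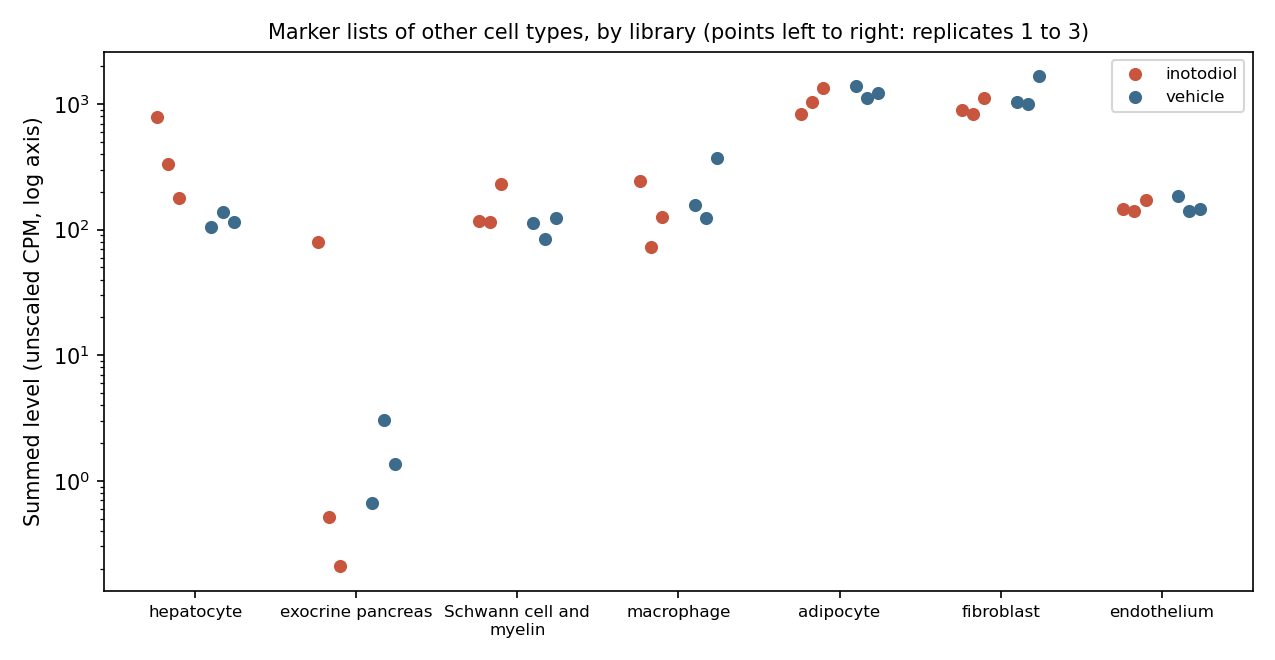
Summed level of marker genes of 7 other cell types in each library, in unscaled CPM on a log axis, with inotodiol libraries to the left of vehicle libraries. Inotodiol 1 stands at 793 CPM for hepatocyte and 79.8 CPM for pancreas genes, inotodiol 3 at 231 CPM for Schwann cell genes and vehicle 3 at 370 CPM for macrophage genes.

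No gene of the sterol pathway passed the test between inotodiol and vehicle muscle after adjustment over all genes. EdgeR's quasi-likelihood test called 0 of 24 members at an adjusted p under 0.05, where the background of called genes was 0%, and the smallest adjusted p of a member was 0.962. DESeq2 and limma-voom called 0 members too. Without adjustment, Hmgcs1, Pmvk, Hsd17b7 and Sc5d had a p under 0.05 and were higher with inotodiol, and Insig2 had one and was lower. The 4 higher members were 16.7% of those tested, beside a background of 2.67% of all genes, and the 1 lower member was 4.17%, beside 2.21%. In either direction the shares were 20.8% of the members and 4.87% of all genes. The groups did not overlap, with inotodiol higher, for 3 members, Hmgcs1, Pmvk and Sc5d, or 12.5%, beside 5.15% of all genes. With inotodiol lower they did not overlap for Insig2, or 4.17%, beside 5.26% of all genes, which makes 16.7% of the members and 10.4% of all genes in either direction.

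These counts rest on single libraries and on the scaling. The number of higher members was 1 without inotodiol 1, 1 without inotodiol 2, 4 without inotodiol 3 and 2 without each vehicle library in turn. Insig2 had a p of 0.05 or more without inotodiol 3, vehicle 1 or vehicle 3. With counts scaled by library totals alone there were 0 higher members and 1 lower, and over all genes 138 of 726 with an unadjusted p under 0.05 were higher, against 312 of 570 with TMM scaling. Of the 24 members 9 lay above 0, with a median log2 fold change of -0.055, beside 5839 of 11700 and a median of -0.00073 over all genes. Summed over the 24 members, the level was 511 ± 10.5 CPM in inotodiol muscle and 509.97 ± 32.2 CPM in vehicle muscle (SD, n = 3 each). CPM values of single genes and of these sums are scaled by TMM, a correction for differences in library composition.

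**Figure D2:**
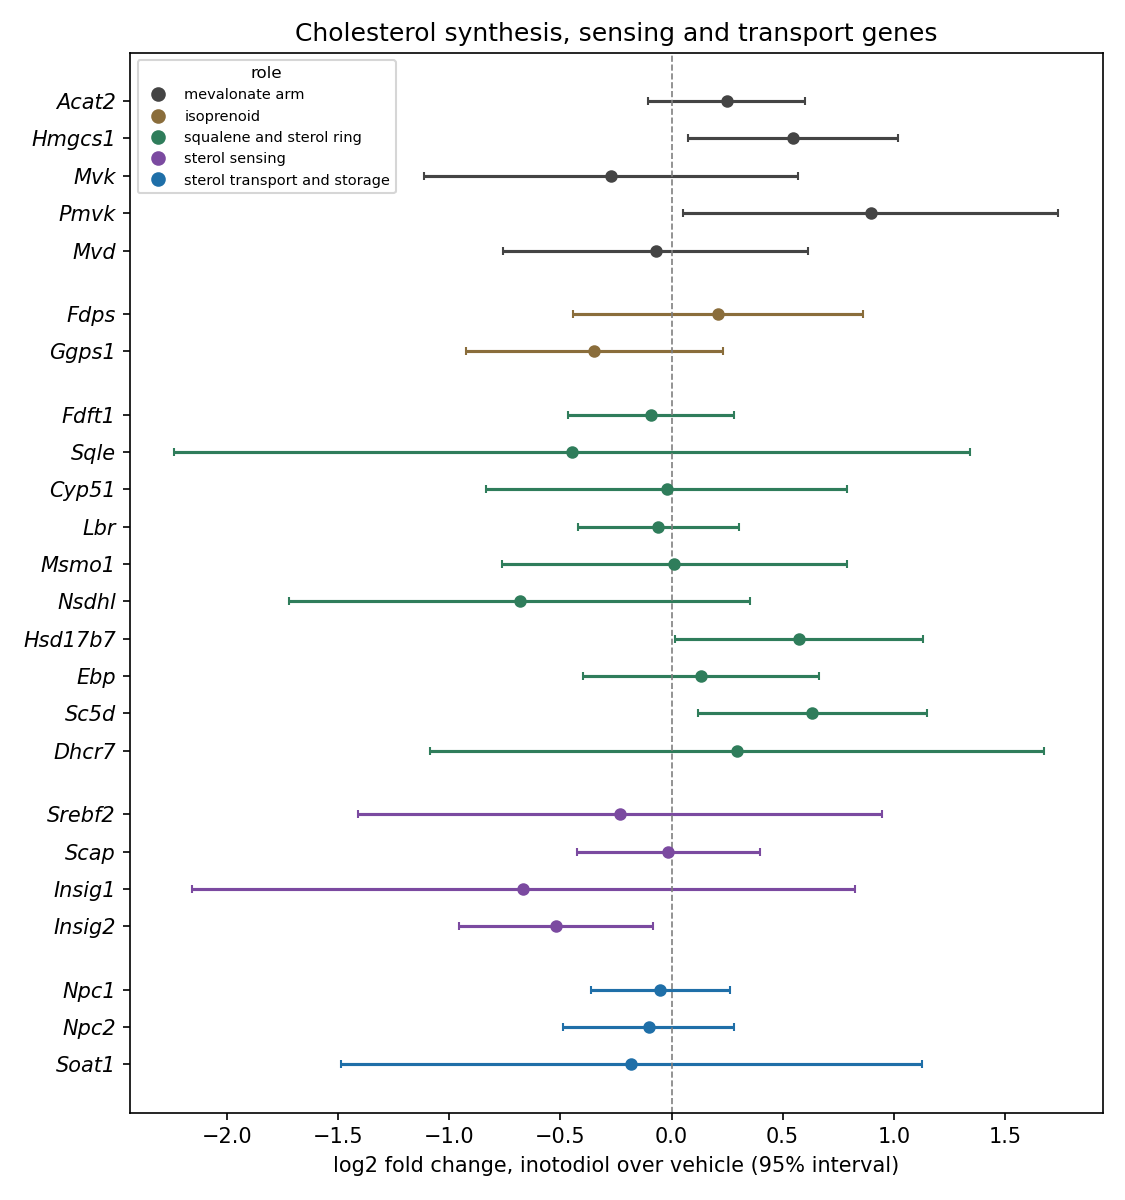
Log2 fold change of inotodiol over vehicle, with 95% intervals, for the 24 sterol genes that passed the filter, in order of their role and coloured by it. The intervals of Hmgcs1, Pmvk, Hsd17b7 and Sc5d lie above 0 and that of Insig2 lies below 0; all others include 0, and none passed the adjusted threshold.

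SREBP2 is known to act at promoters together with NF-Y and Sp1, so the promoter windows of the members were read for their short motifs. RefSeq windows on GRCm38.p6, from 250 bases before to 50 after a transcription start, were found for 23 of the 28 members, in 29 windows. The windows shown are those of Hmgcs1 and Insig1, textbook targets of SREBP2, and of Sc5d, the member with the smallest p in edgeR's test. Capitals mark, on either strand, the sterol regulatory element TCACNCCAC, the E-box CACGTG, the NF-Y box CCAAT and the Sp1 box GGGCGG, and no match overlapped another. The windows lie at chr13:119690101-119690400 on the plus strand, chr9:42264251-42264550 on the minus strand and chr5:28071162-28071461 on the plus strand, each given 5′ to 3′ along the gene.
Hmgcs1: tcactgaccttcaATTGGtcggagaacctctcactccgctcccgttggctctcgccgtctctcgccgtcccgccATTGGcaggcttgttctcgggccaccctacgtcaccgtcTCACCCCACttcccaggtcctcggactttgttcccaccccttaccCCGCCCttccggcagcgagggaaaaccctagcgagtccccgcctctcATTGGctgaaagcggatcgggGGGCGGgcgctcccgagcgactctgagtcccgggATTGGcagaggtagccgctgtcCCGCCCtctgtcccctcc
Sc5d: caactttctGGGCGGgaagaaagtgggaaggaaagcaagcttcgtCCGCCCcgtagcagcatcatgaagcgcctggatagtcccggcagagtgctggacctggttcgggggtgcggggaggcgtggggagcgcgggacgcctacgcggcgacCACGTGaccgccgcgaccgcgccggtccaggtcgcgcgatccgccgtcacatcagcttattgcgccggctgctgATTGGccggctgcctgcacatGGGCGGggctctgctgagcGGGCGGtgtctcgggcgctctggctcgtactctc
Insig1: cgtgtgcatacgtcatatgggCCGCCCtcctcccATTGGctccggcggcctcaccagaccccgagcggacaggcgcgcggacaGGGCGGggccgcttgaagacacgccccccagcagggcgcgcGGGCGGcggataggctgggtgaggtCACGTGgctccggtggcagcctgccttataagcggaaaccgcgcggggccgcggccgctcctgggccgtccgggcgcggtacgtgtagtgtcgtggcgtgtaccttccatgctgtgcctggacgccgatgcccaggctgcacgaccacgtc
An exact match to the sterol element was found in 1 of the 29 member windows and in 1.24% of all 32851 windows. The member window is that of Hmgcs1, where the match starts at base -137 from the transcription start. Sterol elements with other letters were not searched for, so the other windows may hold some. An NF-Y box stood in the windows of 21 of 23 members, all but Acat2 and Scap, and in those of 41.1% of all genes. An Sp1 box likewise stood in those of 21 of 23 members, all but Pmvk and Ggps1, and in those of 38.2% of all genes. The E-box was found for 5 members, Sc5d, Dhcr7, Hsd17b7, Scap and Insig1, and for 8.09% of all genes. Sc5d and Insig1, which lay on opposite sides of 0, share an E-box at base -98 and -101. A match of letters is a description of the window and not a binding site.

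**Figure D3:**
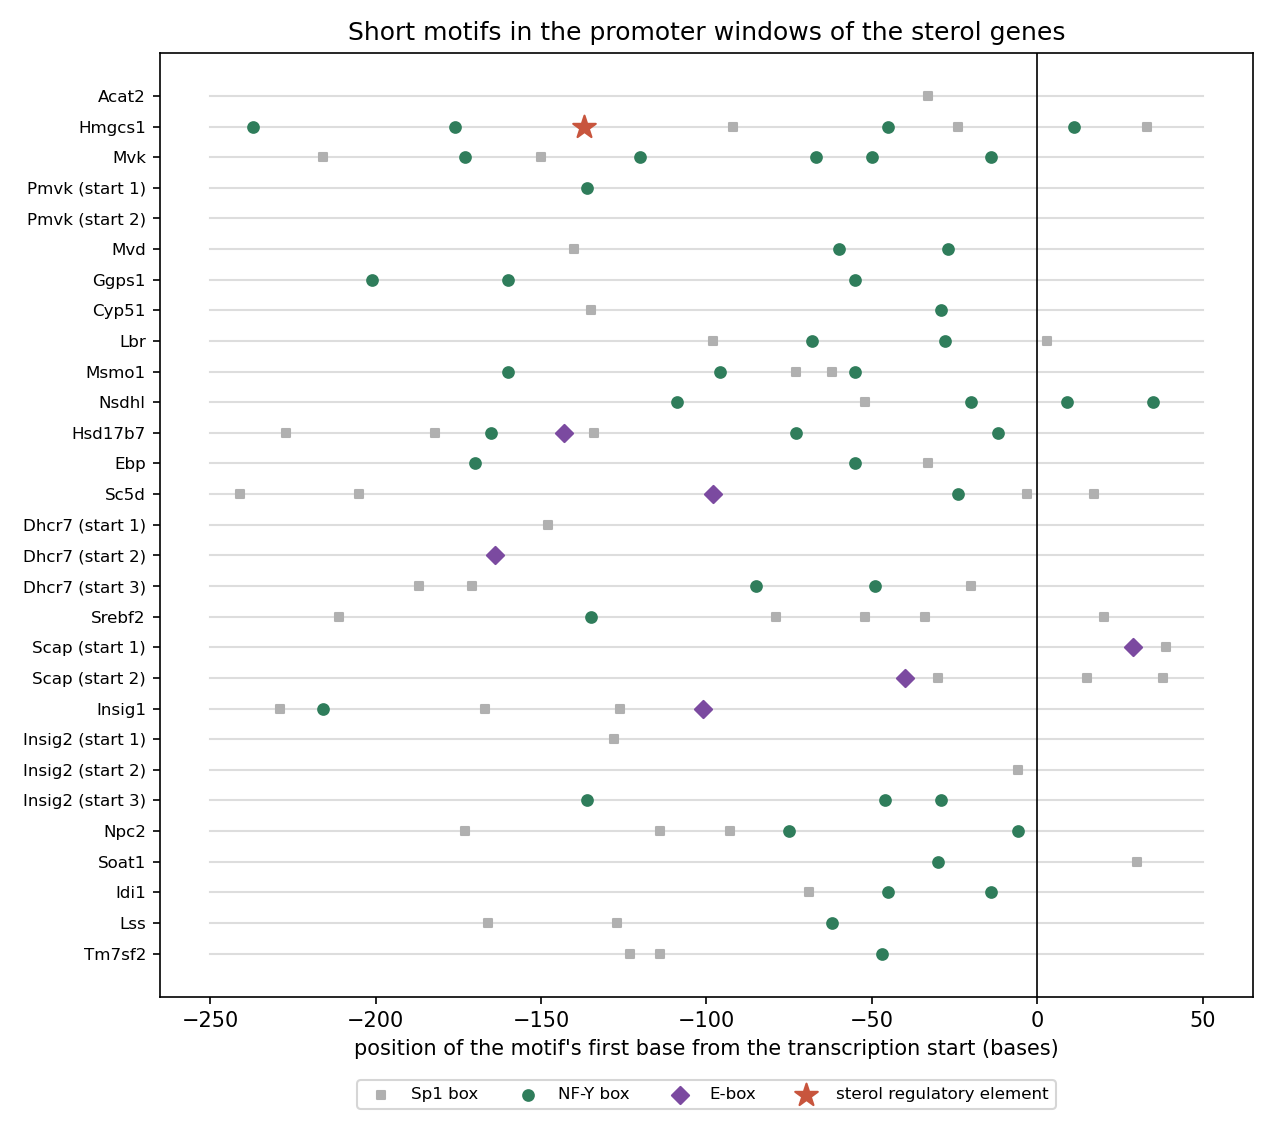
Positions of the 4 motifs in the 29 promoter windows of 23 members, as the distance of the motif's first base from the transcription start in bases; each line is 1 window. Hmgcs1 holds the only exact match to the sterol element TCACNCCAC, at -137, and NF-Y and Sp1 boxes are spread over the windows of 21 members each.

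In the mevalonate arm Hmgcs1 and Pmvk lay higher with inotodiol in every mouse, and the other members tested overlapped between groups. Hmgcs1, which joins acetoacetyl-CoA and acetyl-CoA to HMG-CoA (chromosome 13, 119690379 to 119708260), had 21.5, 27.6 and 20.9 CPM in inotodiol muscle, against 18.7, 13.1 and 16.1 CPM in vehicle muscle. Every inotodiol mouse lay above every vehicle mouse, with the closest pair at 20.9 and 18.7 CPM. The log2 fold change was 0.55 ± 0.22 (SE, 95% interval 0.074 to 1.02), with an adjusted p of 0.962 in edgeR. It ranged from 0.41 to 0.68 with single libraries left out. Hmgcs1 is the member whose promoter window carries the exact match to the sterol element above. Pmvk, Hsd17b7, Sc5d and Insig2 have windows without such a match, and a link between the match and the level was not tested.

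Pmvk, phosphomevalonate kinase (chromosome 3, 89454541 to 89469013), had 8.57, 5.99 and 5.02 CPM in inotodiol muscle, against 2.84, 4.32 and 3.34 CPM in vehicle muscle. The groups did not overlap. The inotodiol libraries stood in the order of their hepatocyte and exocrine pancreas sums and their Rn45s shares, from library 1 down to library 3. The part of these was not tested. The log2 fold change of 0.90 ± 0.39 was the largest of the 24 members (95% interval 0.053 to 1.74, edgeR adjusted p 0.962), and it was 0.65 without inotodiol 1. These values rest on 27 to 79 counts per library.

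Acat2, the cytosolic thiolase that makes acetoacetyl-CoA, had 48.4, 55.7 and 66.1 CPM in inotodiol muscle, against 44.8, 49.1 and 49.5 CPM in vehicle muscle. Inotodiol 1 alone lay within the vehicle range, and the log2 fold change was 0.25 ± 0.16 (95% interval -0.11 to 0.60), or 0.12 without inotodiol 3. Its transcript is 97.7% identical to that of Acat3 over 1477 bases and 98.7% identical to that of Tcp1 over 445 bases. Over the 6 libraries Acat3 held 6271 counts and Tcp1 7543, against 2977 for Acat2, so how reads were shared between the genes is uncertain. Mvk, mevalonate kinase, averaged 4.81 ± 0.84 CPM with inotodiol and 5.82 ± 2.04 CPM with vehicle. Mvd, which makes isopentenyl diphosphate, averaged 6.25 ± 0.85 and 6.57 ± 0.18 CPM in the same order (SD, n = 3 each). Their log2 fold changes were -0.27 ± 0.39 and -0.071 ± 0.32. Idi1, the isomerase of the isoprenoid unit, did not pass the filter, with 3, 2 and 1 counts in inotodiol libraries and 2, 1 and 6 counts in vehicle libraries. Over the 5 members tested, 3 lay above 0.

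**Figure D4:**
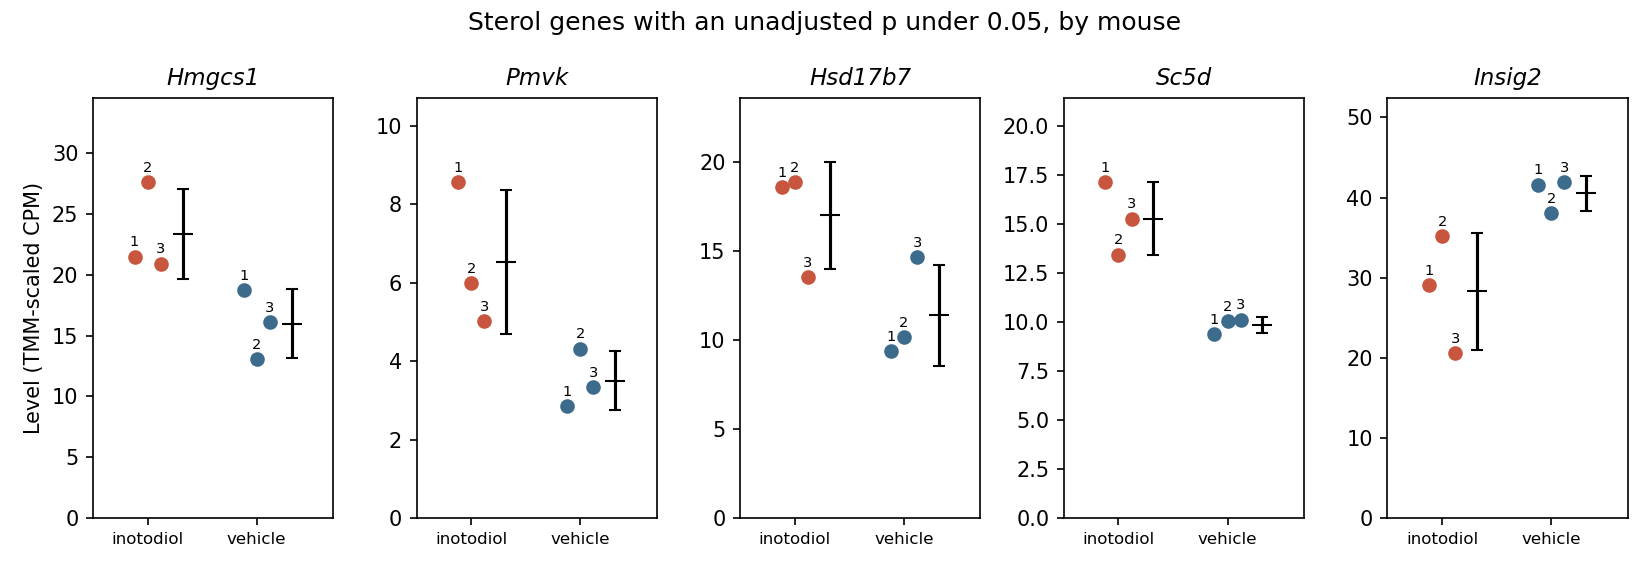
Level in TMM-scaled CPM of the 5 sterol genes with an unadjusted p under 0.05, in each inotodiol mouse (left) and each vehicle mouse (right). Points carry the replicate number, and bars are mean ± SD of 3 mice. The groups are apart for Hmgcs1, Pmvk, Sc5d and Insig2, and overlap for Hsd17b7, where inotodiol 3 (13.5 CPM) lies below vehicle 3 (14.6 CPM).

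The isoprenoid branch point showed no difference past the test. Fdps, which makes farnesyl diphosphate, had 15.6, 9.99 and 14.7 CPM in inotodiol muscle, against 10.4, 16.4 and 8.05 CPM in vehicle muscle, so the groups were interleaved. Its log2 fold change of 0.21 ± 0.30 was decided by single libraries. It was 0.087, 0.38 and 0.14 without inotodiol 1, 2 and 3, and 0.14, 0.55 and 0.0014 without vehicle 1, 2 and 3. Near-copies of the transcript exist in 4 pseudogenes. Ggps1, which makes the longer geranylgeranyl diphosphate, had 11.5, 8.10 and 8.61 CPM in inotodiol muscle, against 13.6, 11.3 and 11 CPM in vehicle muscle. Only inotodiol 1 reached the vehicle range, and the log2 fold change was -0.35 ± 0.27 (95% interval -0.93 to 0.23).

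From squalene to cholesterol Sc5d and Hsd17b7 lay higher with inotodiol, both at an unadjusted p under 0.05 in edgeR's test. All other members tested here, early and late, had intervals that include 0. Of the 10 tested, 5 lay above 0 and 5 below. Fdft1, squalene synthase, had 37.5, 45.4 and 48.7 CPM in inotodiol muscle, against 53.1, 40.4 and 46.7 CPM in vehicle muscle. The ranges overlapped for most of their width, and the log2 fold change was -0.091 ± 0.17 (95% interval -0.47 to 0.28). Sqle, squalene epoxidase and a rate-controlling step, had 12, 37 and 11 counts with inotodiol and 3, 56 and 26 counts with vehicle. It varied more between mice of 1 group than any other member tested, with a biological coefficient of variation of 66.5% beside a common value of 27.2%. Its log2 fold change of -0.45 ± 0.83 had a 95% interval from -2.24 to 1.34.

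Lss, the cyclase that makes lanosterol, had 2, 8 and 10 counts in inotodiol libraries and 0, 0 and 9 counts in vehicle libraries, and did not pass the filter. A count of 0 allows up to 0.335 CPM in vehicle 1 and 0.325 CPM in vehicle 2, for counting error alone. Cyp51, which takes the first methyl group off lanosterol, had 4.67, 6.77 and 4.20 CPM in inotodiol muscle, against 6.42, 4.32 and 5.11 CPM in vehicle muscle. The groups were interleaved, at a log2 fold change of -0.021 ± 0.38 (95% interval -0.83 to 0.79). The sterol reductase genes were counted at different depths. Tm7sf2 had 4, 11 and 0 counts in inotodiol libraries and 6, 6 and 4 counts in vehicle libraries, under the filter. Lbr, a nuclear envelope protein with the same reductase activity, averaged 45.9 ± 6.82 CPM with inotodiol and 47.9 ± 3.89 CPM with vehicle (SD, n = 3 each), a log2 fold change of -0.060 ± 0.17.

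The demethylation steps that follow did not share a direction. Msmo1, the C4 methyl oxidase, averaged 5.33 ± 0.97 CPM with inotodiol and 5.29 ± 0.76 CPM with vehicle, a log2 fold change of 0.012 ± 0.36. Nsdhl, its partner dehydrogenase, had 3.04, 3.11 and 2.05 CPM in inotodiol muscle, against 2.74, 4.43 and 5.99 CPM in vehicle muscle. Of the vehicle mice, 1 lay within the inotodiol range, and the log2 fold change was -0.68 ± 0.48 (95% interval -1.72 to 0.35). It was -0.39 without vehicle 3 and -0.93 without vehicle 1. Hsd17b7, the ketoreductase of the same complex (chromosome 1, 169949535 to 169969241), had 18.6, 18.9 and 13.5 CPM in inotodiol muscle, against 9.37, 10.1 and 14.6 CPM in vehicle muscle. Both groups held a mouse inside the other's range, inotodiol 3 and vehicle 3. The log2 fold change was 0.57 ± 0.26 (95% interval 0.017 to 1.13, edgeR adjusted p 0.962), and its unadjusted p was under 0.05 in 9 of 16 fits.

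Sc5d, the desaturase that makes 7-dehydrocholesterol from lathosterol (chromosome 9, 42251595 to 42264256), had the smallest p of the 24 members in edgeR's test, while Insig2 had a smaller one than Sc5d in DESeq2, limma-voom and several other fits. It had 17.1, 13.4 and 15.3 CPM in inotodiol muscle, against 9.37, 10.0 and 10.1 CPM in vehicle muscle. Every inotodiol mouse lay above every vehicle mouse, and the spread was 1.86 CPM in inotodiol and 0.41 CPM in vehicle muscle (SD, n = 3 each). For Sc5d the log2 fold change was 0.63 ± 0.24 (95% interval 0.12 to 1.15), with an adjusted p of 0.962 in edgeR. This fold change ranged from 0.54 to 0.72 with single libraries left out, and its unadjusted p was under 0.05 in 14 of 16 fits. Dhcr7, which turns 7-dehydrocholesterol into cholesterol, had 3.26, 1.78 and 1.33 CPM in inotodiol muscle, against 1.47, 1.84 and 1.87 CPM in vehicle muscle. Inotodiol 1 alone lay above the vehicle range, and the log2 fold change of 0.29 ± 0.64 became -0.15 without it. Ebp, the sterol isomerase upstream of Sc5d, had 38.5, 20.3 and 21.5 CPM in inotodiol muscle, against 25.4, 26.8 and 21.1 CPM in vehicle muscle. Its log2 fold change of 0.13 ± 0.25 became -0.22 without inotodiol 1, the library with the highest hepatocyte and pancreas sums.

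All 4 sterol-sensing members had log2 fold changes below 0, beside 5861 of 11700 over all genes. Scap stood at -0.014 and Srebf2 at -0.23, and both changed sign in some fits with a single library left out. Insig2 was the only member among them with an unadjusted p under 0.05. Insig2, which retains Scap in the endoplasmic reticulum (chromosome 1, 121304353 to 121332589), had 29.1, 35.2 and 20.6 CPM in inotodiol muscle, against 41.6, 38.0 and 41.9 CPM in vehicle muscle. Every inotodiol mouse lay below every vehicle mouse, and the inotodiol mice were spread more widely, at an SD of 7.32 CPM against 2.18 CPM in vehicle. The log2 fold change was -0.52 ± 0.20 (95% interval -0.96 to -0.083, edgeR adjusted p 0.962). Without inotodiol 3 it was -0.34, and without inotodiol 2 it was -0.71. Inotodiol 3 had the highest Schwann cell sum and the lowest muscle fibre and erythroid sums of all libraries, and the part of these was not tested. RefSeq places its transcription starts in 3 windows, and counts per gene do not tell these starts apart.

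Insig1, the form that SREBP2 itself induces, had 10, 10 and 17 counts in inotodiol libraries, against 28, 9 and 24 counts in vehicle libraries. Vehicle 2 lay at the level of the inotodiol mice, and the log2 fold change was -0.67 ± 0.69 (95% interval -2.16 to 0.82). It was -0.34 without vehicle 1 and -0.999 without vehicle 2. Scap, the escort protein, had 19.5, 23.0 and 20.9 CPM in inotodiol muscle, against 19.6, 21.9 and 22.5 CPM in vehicle muscle. Its log2 fold change was -0.014 ± 0.19, with a 95% interval from -0.43 to 0.40. Srebf2 had 4.34, 2.44 and 1.84 CPM in inotodiol muscle, against 2.84, 2.16 and 5.11 CPM in vehicle muscle. The inotodiol libraries stood in the order of their hepatocyte and exocrine pancreas sums and their Rn45s shares, from library 1 down to library 3. Their macrophage, fibroblast and Schwann cell sums were lowest in library 2. The vehicle libraries stood in the order of their macrophage, fibroblast and Schwann cell sums alike, with vehicle 3 highest. These orders single out no cell type, and the part of each was not tested. For Srebf2 the log2 fold change was -0.23 ± 0.55 (95% interval -1.41 to 0.95).

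Of the 4 transport and storage genes the 3 that were tested, Npc1, Npc2 and Soat1, had log2 fold changes below 0 with intervals that include 0. Npc1, which exports cholesterol from lysosomes, had 107, 85.3 and 95.5 CPM in inotodiol muscle, against 97.6, 91.4 and 109 CPM in vehicle muscle. Its log2 fold change of -0.050 ± 0.15 had the narrowest 95% interval of the members, from -0.36 to 0.26. Npc2, the soluble lysosomal protein that hands cholesterol to Npc1, had 65.2, 73.7 and 76.9 CPM in inotodiol muscle, against 77.6, 58.9 and 95.1 CPM in vehicle muscle. The inotodiol values lay inside the vehicle range, and the log2 fold change was -0.10 ± 0.18 (95% interval -0.49 to 0.28).

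Soat1, which esterifies cholesterol for storage in droplets, had 4.45, 2.00 and 1.43 CPM in inotodiol muscle, against 3.48, 1.51 and 3.93 CPM in vehicle muscle. As for Srebf2, the inotodiol libraries stood in the order of their hepatocyte and exocrine pancreas sums and their Rn45s shares. The vehicle libraries stood in that of their macrophage, fibroblast and Schwann cell sums alike. The part of each was not tested. For Soat1 the log2 fold change was -0.18 ± 0.61 (95% interval -1.49 to 1.12). Stard4, a soluble sterol carrier, had 16, 8 and 9 counts in inotodiol libraries and 7, 14 and 0 counts in vehicle libraries, and did not pass the filter.

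The members did not move as 1 block from mouse to mouse. The mean deviation of the 24 members from their own averages was 0.12, 0.026 and -0.13 on the log2 scale in inotodiol libraries 1 to 3, against -0.066, -0.034 and 0.083 in vehicle libraries 1 to 3. Each library was the highest for some members, from 2 of 24 in vehicle 2 to 5 of 24 in inotodiol 1, inotodiol 2 and vehicle 3. Divided by role, the sum of the 5 mevalonate arm members was 88.8, 102 and 102 CPM with inotodiol, against 81.0, 78.8 and 79.2 CPM with vehicle, and Acat2 made up most of it. The sum of the 4 sensing members was 54.0, 61.7 and 45.1 CPM with inotodiol, against 67.0, 63.1 and 71.9 CPM with vehicle, and Insig2 was the largest part of it in every library but inotodiol 3, where Scap was. The groups did not overlap in either sum with TMM scaling. In unscaled CPM, inotodiol 1 fell inside the vehicle range for the mevalonate arm sum, and the sensing sums stayed apart. The sums of the 2 isoprenoid members, the 10 ring members and the 3 transport members overlapped between groups. None of these sums was tested.

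**Figure D5:**
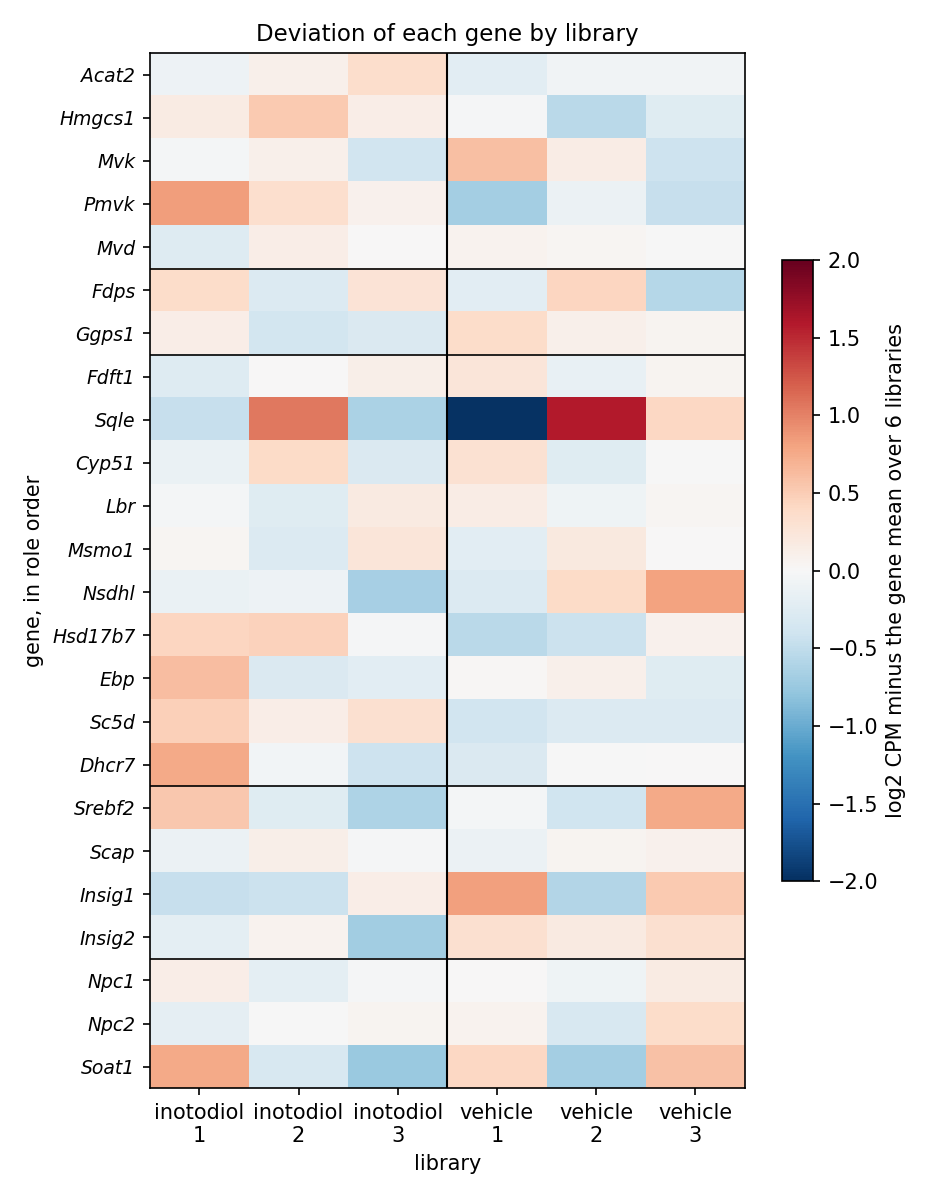
Deviation of each of the 24 sterol genes from its own mean over 6 libraries, in log2 CPM, with inotodiol libraries left of the line and vehicle libraries right of it; black lines part the roles. Sqle spans the widest range, from -1.98 in vehicle 1 to 1.59 in vehicle 2, and no library is high or low throughout.

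Other genes of sterol handling, from lists written with earlier results of these data known, gave 0 calls after adjustment over all genes. Of 16 genes tested for SREBP processing and sterol-regulated degradation, 5 lay above 0, the median log2 fold change was -0.073, and none had an unadjusted p under 0.05. Their smallest p belonged to March6, a ubiquitin ligase of squalene epoxidase, at -0.25 ± 0.14, ahead of Rnf145 at -0.51 ± 0.34 and the coat protein gene Sec24d at -0.71 ± 0.57. Of 11 genes that use isoprenoids, 6 lay above 0, and 1, Nus1, was lower at an unadjusted p under 0.05, beside 2.21% of all genes. Nus1, a subunit of the enzyme that makes dolichol, stood at -0.45 ± 0.21 with groups that did not overlap and an edgeR adjusted p of 0.962. Coq2, which attaches the ubiquinone side chain, stood at 0.40 ± 0.20 and did not overlap either. Over all genes the groups did not overlap for 5.26% with inotodiol lower and for 5.15% with inotodiol higher. Icmt, which methylates prenylated proteins, stood at -0.31 ± 0.25. Of 20 genes of sterol movement and lipoprotein uptake, 8 lay above 0 with a median of -0.12, led by Stard3nl at -0.996 ± 0.50, Tspo at -0.51 ± 0.28 and the receptor gene Lrp1 at -0.28 ± 0.17.

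The 11 liver X receptor and efflux genes had a median log2 fold change of -0.028 with 5 above 0, and their 3 smallest p belonged to Arl4c at -0.85 ± 0.71, Rxra at 0.17 ± 0.15 and Plin2 at -0.28 ± 0.25. Of 8 genes of oxysterol metabolism 3 passed the filter, Cyp27a1, Ephx1 and Hsd3b7, with log2 fold changes from 0.018 to 0.035. The fatty acid side of SREBP, with 13 genes tested, had a median of 0.042 with 9 above 0. Of the 13 genes, 2 had an unadjusted p under 0.05, both higher with inotodiol, beside 2.67% of all genes in that direction. Fasn stood at 1.09 ± 0.32, Scd1 at 0.51 ± 0.19 and Acss2, which makes acetyl-CoA in the cytosol, at 0.42 ± 0.23, with edgeR adjusted p of 0.736, 0.962 and 0.962. The groups overlapped for Fasn and Scd1 and did not for Acss2. Fasn, Scd1 and Acss2 were each highest in inotodiol 1, at 630, 1866 and 185 counts, the library with the highest hepatocyte sum. Adipocyte genes, which could also carry these transcripts, summed to between 834 and 1333 CPM with inotodiol and between 1118 and 1396 CPM with vehicle, and 2 of 10 tested lay above 0. The part of liver or fat RNA in these values was not tested.

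Several members share bases with other genes, and the strand setting of the counting is not given in the sources used here. By the GENCODE M21 annotation 11 of the 28 members share exon bases with another gene. Fdft1 shares 774 bases with Ctsb on the other strand, Cyp51 166 bases with Akap9 and Ggps1 257 bases with Arid4b. Tm7sf2 shares 532 bases with Vps51 on its own strand. Ctsb, Akap9 and Arid4b held 8437, 19234 and 6943 counts over the 6 libraries, more than the 2584, 298 and 609 counts of Fdft1, Cyp51 and Ggps1, so part of the reads of these members is uncertain. Transcripts of other loci that are at least 95% identical over 150 bases or more were found for Acat2, Fdft1, Fdps, Ggps1, Idi1 and Insig1. Of the 5 members with an unadjusted p under 0.05, Hmgcs1 alone had either kind of overlap, 557 exon bases with an antisense transcript whose counts are not used here.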

How the data were processed

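RNA from gastrocnemius muscle of 6 mice was sequenced from libraries made with a Lexogen Quant-Seq kit, per the labels' protocols. The deposited values are whole-number counts per gene symbol, 1 table per mouse, from Bowtie2 and bedtools with the mm10 build, per the submitters' processing notes. Versions, annotation, strand setting and the rule for reads with several matches are not given in these sources. Of 23282 rows, 44 repeated a symbol and were kept as rows. Counts were filtered with filterByExpr (minimum count 10, total 15), scaled by TMM and tested in edgeR 4.0.16 (R 4.3.3) with the quasi-likelihood test, two-sided, group as the only term, Benjamini-Hochberg adjustment over 11700 genes at 0.05. Standard errors came from fitted weights and moderated dispersions; log2 deviations used a prior count of 2. Marker sums are unscaled CPM. The gene test was tried on simulated data. P-values set the difference between groups against the spread among 3 mice per group, moderated over all genes.

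The members, lists, roles and motifs were chosen with earlier results of these data known, so lists get counts and medians and no test. All members are named; 3 genes with the smallest p are named per related list; the promoter rule named Hmgcs1, Sqle, Insig1 and the member with the smallest p. Gene spans are from GENCODE M21 (GRCm38, the assembly of mm10), shared sequence from blastn 2.17.0, promoters from RefSeq (GRCm38.p6). As alternatives, counts were scaled by RLE, by the upper quartile or by totals only, tested without a filter or with 1 CPM required in 6 libraries, and tested with DESeq2 1.42.0, with limma-voom (3.58.1) and with a replicate block. Liver, pancreas and Rn45s genes were also left out of the counts before totals, scaling and testing, which left 11666 genes. Rn45s held 10.2%, 9.56% and 4.33% of counts in inotodiol libraries 1 to 3, and 3.97%, 6.82% and 4.38% in vehicle libraries 1 to 3. Each library was left out in turn.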

Additional observations from a re-analysis of the deposited data

How the results depend on the processing

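No sterol gene passed the adjusted threshold in any of the 16 fits, and of the members' log2 fold changes under the alternatives 333 kept their sign and 25 did not. Hmgcs1, Pmvk, Hsd17b7, Sc5d and Insig2 kept their sign in all 15 alternatives. So did Fdps, Nsdhl, Acat2 and Ggps1, and Insig1 in the 14 that tested it, with no unadjusted p under 0.05 in any fit. With library totals alone the median of the members was -0.17 and that of all genes -0.12, Msmo1 stood at -0.095, and 0 members were higher at an unadjusted p under 0.05. Limma-voom put Sqle at 0.039. Over all genes 0 were called in the reported fit, 95 with no filter, 1 with DESeq2 and between 0 and 25 with single libraries left out, the 25 without inotodiol 3. The causes were not tested.

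With single libraries left out, the higher members at an unadjusted p under 0.05 numbered 1 to 4 and the lower ones 0 to 1. The log2 fold change then changed sign for 14 genes, each within a 95% interval that already included 0. Its range was -1.28 to 0.59 for Sqle, -0.79 to 0.11 for Soat1, -0.65 to 0.20 for Srebf2, -0.50 to 0.011 for Mvk, -0.26 to 0.075 for Npc2 and -0.25 to 0.14 for Cyp51. It was -0.22 to 0.30 for Ebp, -0.18 to 0.010 for Fdft1, -0.18 to 0.038 for Lbr, -0.16 to 0.034 for Mvd, -0.15 to 0.54 for Dhcr7, -0.13 to 0.028 for Npc1, -0.12 to 0.14 for Msmo1 and -0.077 to 0.041 for Scap.

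Samples of both groups share replicate numbers, but deviations of same-numbered libraries correlated at -0.081 to 0.108 over genes, and 2 of 6 libraries correlated best with their own number, so the numbers were not taken as pairs. With a replicate block 2 members were higher at an unadjusted p under 0.05, 0 were called, and the median was -0.059. Depth limits the genes with few counts: Idi1, Lss, Tm7sf2 and Stard4 could not be tested under the filter, and 3 counts correspond to 0.301 to 0.335 CPM. The median standard error of the members, 0.29 on the log2 scale, and 3 mice per group limit the rest.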
